A study of Mus musculus with 40 samples.

Results

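The genes described here encode the enzymes of phase II conjugation in mouse liver, and the data are the positions of the corepressors SMRT and NCoR and of their deacetylase HDAC3 on chromatin. Members were the autosomal protein-coding genes whose symbols name a glutathione S-transferase (Gsta, Gstm, Gstp, Gstt, Gsto or Gstz), a sulfotransferase (Sult) or a UDP-glucuronosyltransferase of families 1 and 2 (Ugt). There were 61 such genes among 20807 autosomal protein-coding genes. The 9 Ugt1a genes share their last exons and were counted as 1 locus, which left 53 loci of 20799. A peak was given to the locus with the nearest protein-coding transcription start site (TSS). By that rule the members held 146 of 35138 NCoR peaks, 47 of 10654 SMRT peaks and 61 of 14462 HDAC3 peaks.

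Phase II enzymes attach a polar group to drugs, hormones, bile acids and products of oxidation, often after a cytochrome P450 has made the compound reactive. Glutathione S-transferases add glutathione, sulfotransferases add sulfate from the donor PAPS, and UDP-glucuronosyltransferases add glucuronic acid from UDP-glucuronic acid, and the conjugates then leave the hepatocyte through transporters. SMRT and NCoR have no deacetylase activity of their own and act as scaffolds that bind and activate HDAC3, and transcription factors bring the complex to DNA.

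The series held 40 chromatin immunoprecipitation sequencing (ChIP-seq) samples of mouse liver, and 3 peak lists of it were used, 1 each for SMRT, NCoR and HDAC3. All came from ad libitum fed C57BL/6 males of genotype Bcl6 fl/fl, in which Bcl6 carries loxP sites but, without Cre, remains intact. Each list came from 3 libraries, which were pooled to find candidate peaks and then counted one by one, so that only peaks enriched over input across the libraries were kept. The same input library is labelled as the control for all of these ChIP samples. The animals' age and the sequencing depth were not given in the sources used here. The lists carried positions only, with no height and no value per library, so nothing below has an error between animals and no test between conditions was possible. Intervals in parentheses are exact (Clopper-Pearson) 95% binomial intervals and cover counting error only. Neighbouring peaks and paralogous genes are not independent replicates. Peak positions hold no expression values, so the liver label was not checked against marker genes. Livers were whole tissue, so peaks cannot be tied to a cell type, and only males were profiled, although several Sult genes are known to differ between the sexes in mouse liver.

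NCoR was present at most phase II loci. At least 1 NCoR peak was held by 47 of the 53 loci (88.7%), against 50.6% of all autosomal protein-coding loci. SMRT was found at 29 loci (54.7%, all loci 24.5%) and HDAC3 at 35 (66%, all loci 30.3%). A shared site, meaning an NCoR peak with a SMRT and an HDAC3 peak centred within 200 bp of it, was held by 26 loci (49.1%), against 21.8% of all loci. The counts at the cytochrome P450 loci of families 1 to 3, which carry out phase I oxidation, were close to these: 90.2% of 61 loci held NCoR, 63.9% SMRT, 68.9% HDAC3 and 52.5% a shared site. When peaks were counted only inside a gene or within 5 kb of it, 41 of the 53 phase II loci held NCoR (77.4%, all loci 48.9%), 21 SMRT (39.6%, all loci 21.1%), 22 HDAC3 (41.5%, all loci 27.2%) and 15 a shared site (28.3%, all loci 18.2%). No test was run between the sets. The lists hold no expression data, so the comparison with all loci includes genes that are silent in liver.

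**Figure D1:**
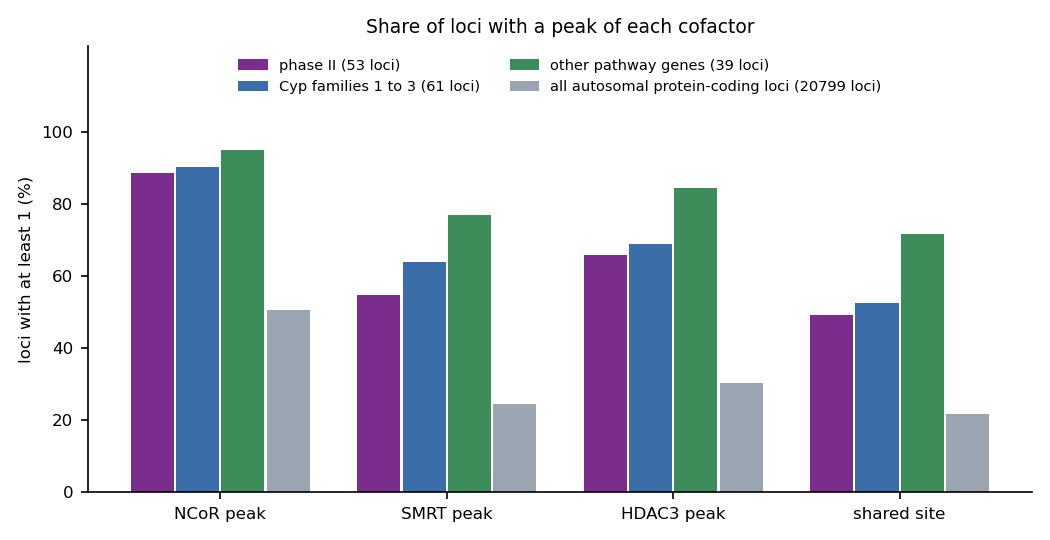
Share of loci (y axis, percent) with at least 1 NCoR, SMRT or HDAC3 peak or shared site, for the 53 phase II loci, the 61 Cyp1 to Cyp3 loci, 39 other pathway genes and all 20799 autosomal protein-coding loci. The phase II bars (88.7%, 54.7%, 66% and 49.1%) stand above those of all loci (50.6%, 24.5%, 30.3% and 21.8%) and beside those of the Cyp loci.

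Sequences are printed first for promoters that carried all cofactors. Shared sites within 300 bp of a TSS were found at 5 members, and the windows at Ugt2b1 and Sult2a8 are printed as examples from the glucuronosyltransferases and the sulfotransferases. Each is the 201 bp centred on the NCoR peak in GRCm38/mm10, given 5′ to 3′ on the strand of the gene, with matches to any of 11 searched motifs in capitals. The Ugt2b1 window (chr5:86926558-86926758, minus strand) was centred 128 bp upstream of the TSS. The Sult2a8 window (chr7:14438576-14438776, minus strand) was centred 125 bp upstream of an annotated TSS within that gene and held an HNF6/CUX2 match.
Ugt2b1 promoter site: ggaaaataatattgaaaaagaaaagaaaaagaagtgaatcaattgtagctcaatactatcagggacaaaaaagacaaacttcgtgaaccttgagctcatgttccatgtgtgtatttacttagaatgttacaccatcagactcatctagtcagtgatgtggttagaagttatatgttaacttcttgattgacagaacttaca
Sult2a8 promoter site: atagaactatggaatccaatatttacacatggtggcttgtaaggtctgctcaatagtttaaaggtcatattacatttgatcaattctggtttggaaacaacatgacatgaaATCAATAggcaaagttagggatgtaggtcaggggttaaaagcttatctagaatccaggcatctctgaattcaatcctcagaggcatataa
Both windows were AT-rich, with a G and C content of 32.8% at Ugt2b1 and 36.3% at Sult2a8. This did not hold for all 5, as the Gstm4 window had 61.7%. The Ugt2b1 window held no match to a searched motif.

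The motifs were short strings searched on both strands: BCL6/STAT TTCNNNGAA, HNF4 half-site CAAAGTCCA, DR1 core AGGNCAAAG, ERR half-site TCAAGGTCA, FOX TGTTTAC, HNF6/CUX2 TATTGAT, C/EBP TTNNGCAA, HNF1 GTTAATNAT, the antioxidant response element (ARE) TGACNNNGC, the AHR element (XRE) TTGCGTG, and DR4, the repeat bound by PXR, CAR and other receptors. Matches may overlap one another. In all 35138 NCoR peaks they were present in 7.12% (BCL6/STAT), 2.10% (HNF4), 5.54% (DR1), 1.35% (ERR), 7.75% (FOX), 6.18% (HNF6/CUX2), 19.2% (C/EBP), 1.64% (HNF1), 12.3% (ARE), 0.626% (XRE) and 0.467% (DR4) of windows. A match is a string in the reference sequence and not evidence of a bound factor.

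Most promoters of the Sult2a genes, which encode hydroxysteroid and bile acid sulfotransferases, were close copies of each other but differed in their listed peaks. The Sult2a3 promoter held a shared site (NCoR peak centred 94 bp upstream of the TSS), those of Sult2a4 and Sult2a5 held NCoR alone (229 and 105 bp upstream), and those of Sult2a1, Sult2a2, Sult2a6 and Sult2a7 held no NCoR peak in the aligned stretch. The 121 bases around the Sult2a3 peak were aligned to the 350 bp upstream of each other Sult2a TSS, and the aligned stretches are printed on the strand of each gene. They lay at chr7:14123078-14123198 (Sult2a3, minus), chr7:13989674-13989794 (Sult2a4, minus), chr7:13623840-13623960 (Sult2a5, plus), chr7:13837441-13837561 (Sult2a1, minus), chr7:13733354-13733474 (Sult2a2, plus) and chr7:14254920-14255041 (Sult2a6, minus). Capitals mark C/EBP and HNF1 matches.
Sult2a3, shared site: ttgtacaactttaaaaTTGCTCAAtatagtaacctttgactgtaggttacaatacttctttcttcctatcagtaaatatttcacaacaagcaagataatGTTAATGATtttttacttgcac
Sult2a4, NCoR alone: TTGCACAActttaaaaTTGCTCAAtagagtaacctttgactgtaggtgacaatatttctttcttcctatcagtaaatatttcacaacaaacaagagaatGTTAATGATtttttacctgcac
Sult2a5, NCoR alone: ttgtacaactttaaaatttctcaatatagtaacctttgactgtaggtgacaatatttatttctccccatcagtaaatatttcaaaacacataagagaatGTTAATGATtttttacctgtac
Sult2a1 and Sult2a2, no listed peak: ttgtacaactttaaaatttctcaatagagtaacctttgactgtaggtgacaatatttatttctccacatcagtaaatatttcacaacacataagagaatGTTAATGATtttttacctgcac
Sult2a6, no listed peak: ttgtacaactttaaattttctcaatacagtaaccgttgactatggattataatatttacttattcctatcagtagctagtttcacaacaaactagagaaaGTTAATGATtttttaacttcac
The stretches of Sult2a1 and Sult2a2 were the same letter for letter. Identity to Sult2a3 was 94.2% for Sult2a4, 89.3% for Sult2a5, Sult2a1 and Sult2a2, 82.0% for Sult2a6 and 74.5% for the 110 aligned columns of Sult2a7, and only 23 bases of Sult2a8 could be aligned. The stretches of Sult2a1 to Sult2a7 all held the HNF1 string, with and without a listed peak. The Sult2a4 peak was centred outside its stretch, which ran from 206 to 86 bp upstream. The HNF1 string of Sult2a4 lay outside the 201 bp window of that peak. A C/EBP string was present in the stretches of Sult2a3, Sult2a4 and Sult2a7 and not in the others.

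Whether a read could be placed also differed between these promoters. The authors kept reads of 75 bases that mapped to 1 place, so for each 501 bp window the share of 75-base words that occur once in the genome was counted. It was 100% around the Sult2a3, Sult2a6 and Sult2a7 stretches, 92.7% for Sult2a5 and 81.5% for Sult2a4, but 20.6% for both Sult2a1 and Sult2a2. At Sult2a1 and Sult2a2 the lack of a listed peak thus stood beside a window made mostly of repeated words, and the part of that in the result was not tested. At Sult2a6 and Sult2a7 all words were unique and no peak was listed.

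A further copy of this promoter carried NCoR with HDAC3 10750 bp upstream of Sult2a2, where 63.5% of words were unique. Over 501 bp around the Sult2a3 peak it was 90.2% identical to the Sult2a3 promoter. Other copies held no NCoR peak, at 8607 bp upstream of Sult2a1 (91.0% identity) and 18572 bp upstream of Sult2a3 (82.3%). The share of unique words at these copies was not counted, so their lack of a listed peak may reflect lost reads. Sult2a1 had its only NCoR peak, a shared site, 23284 bp downstream of its TSS. Besides the Sult2a8 site printed above, the other shared sites of the cluster lay 39566 bp downstream of the Sult2a6 TSS and 28656 and 31239 bp upstream of Sult2a7. In all, the 8 Sult2a genes (chr7:13623967-14494230) held 15 NCoR peaks, of which 6 were shared and 6 were NCoR alone.

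**Figure D2:**
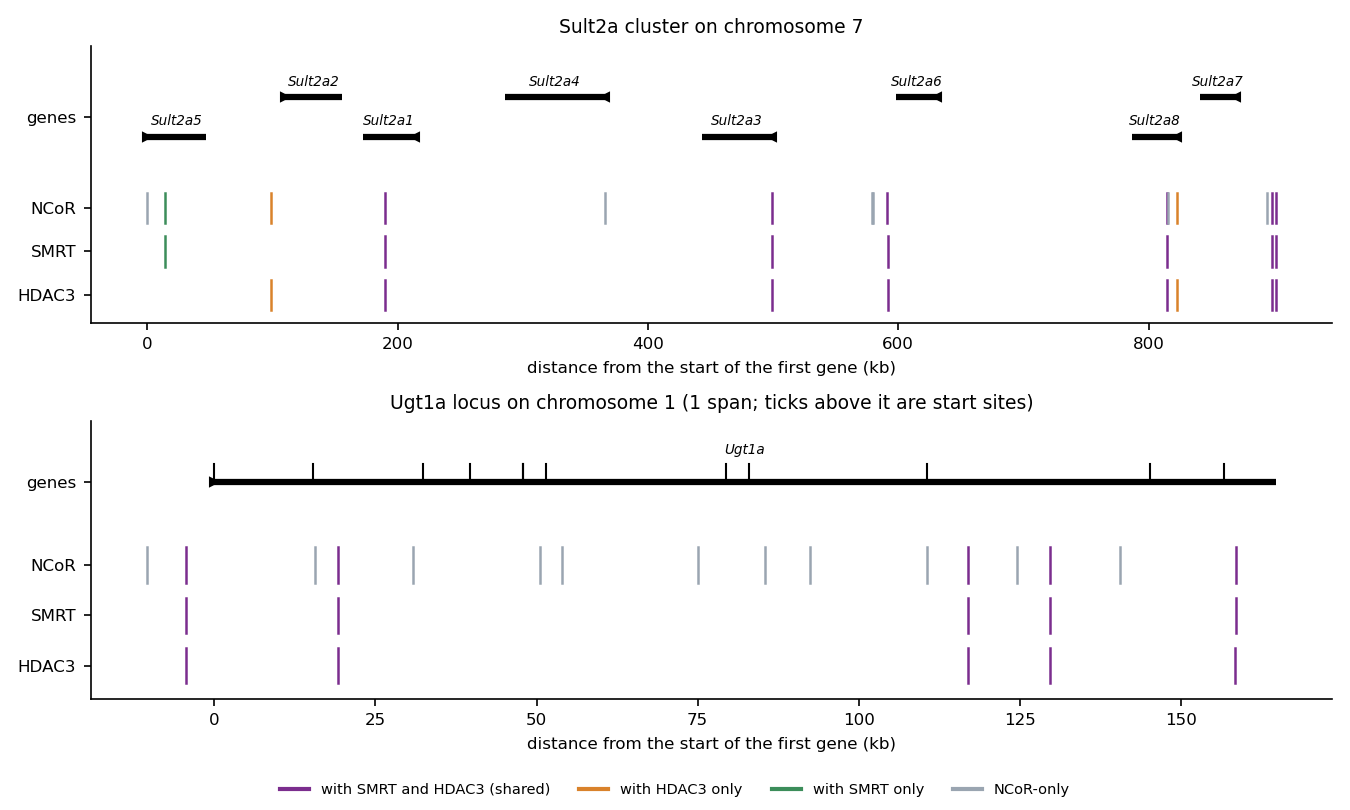
Maps of the Sult2a cluster (top) and the Ugt1a locus (bottom), with distance from the start of the first gene in kb on the x axis, genes as black bars with an arrowhead at the 5′ end, and 1 tick per NCoR, SMRT or HDAC3 peak coloured by the cofactors present. The Sult2a cluster held 15 NCoR peaks with 6 shared sites and Ugt1a 16 with 5, and each SMRT or HDAC3 tick stood below an NCoR tick.

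Ugt1a held the most NCoR peaks and the most shared sites of any member. Its enzymes include Ugt1a1, which conjugates bilirubin, and the Ugt1a6 forms, which conjugate phenols, each from its own first exon (chr1:88055388-88220002, plus strand). Of its 16 NCoR peaks, 5 were shared and 11 were NCoR alone, with no site of an intermediate class. The shared sites lay 4388 bp upstream of the Ugt1a10 TSS, 3823 bp downstream of Ugt1a9, 6312 bp downstream of Ugt1a5, 15590 bp upstream of Ugt1a2 and 1874 bp downstream of Ugt1a1. None was within 300 bp of a TSS, where the locus held NCoR alone, at Ugt1a5 (91 bp upstream) and Ugt1a9 (229 bp downstream, in a coding exon). The shared site in an intron of Ugt1a1 is printed because it is the one nearest to a TSS (chr1:88213733-88213933, plus strand) and because it held matches to ARE and XRE, the elements read by NRF2 and by AHR.
Ugt1a1 intron site: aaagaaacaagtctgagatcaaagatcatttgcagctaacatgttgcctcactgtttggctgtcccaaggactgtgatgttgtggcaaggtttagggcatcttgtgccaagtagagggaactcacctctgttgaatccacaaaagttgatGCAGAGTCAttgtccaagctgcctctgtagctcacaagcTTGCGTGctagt
Across the 5 shared sites no other window held both strings.

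A duplicated intronic stretch of Ugt1a held NCoR in both copies. The peak 2467 bp downstream of the Ugt1a6b TSS (window chr1:88109229-88109429) and that 2412 bp downstream of the Ugt1a6a TSS (window chr1:88140690-88140890) were NCoR alone, and over 501 bp the first was 98.4% identical to the other copy. Both windows, on the plus strand, held a C/EBP match.
Ugt1a6b intron peak: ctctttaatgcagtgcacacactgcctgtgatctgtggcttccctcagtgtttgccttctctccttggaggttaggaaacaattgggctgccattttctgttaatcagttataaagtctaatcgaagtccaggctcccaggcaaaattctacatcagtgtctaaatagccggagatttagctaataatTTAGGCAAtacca
Ugt1a6a intron peak: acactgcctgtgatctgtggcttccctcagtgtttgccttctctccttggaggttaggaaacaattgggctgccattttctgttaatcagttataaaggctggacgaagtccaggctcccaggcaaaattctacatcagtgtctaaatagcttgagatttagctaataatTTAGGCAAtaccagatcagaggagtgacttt
In 501 bp windows at these peaks 63.7% and 63.9% of 75-base words occurred once in the genome. The lowest share at any member peak was 38.9%, at the Ugt1a peak 10380 bp upstream of Ugt1a10, and 13 of the 146 member peaks were below 90%.

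The Ugt2 genes and 3 Sult1 genes sit side by side on chromosome 5 and held the largest group of peaks. Over 13 loci (chr5:86889767-87591594) there were 46 NCoR, 15 SMRT and 15 HDAC3 peaks, with 12 shared sites and 28 sites of NCoR alone. The 7 Ugt2b loci, whose enzymes glucuronidate steroids and many drugs, held 32 NCoR peaks and 9 shared sites. Ugt2b1 held 3 shared sites, at 128, 11955 and 15810 bp upstream, and NCoR alone at 5912 and 19221 bp upstream. Ugt2b35 held 10 NCoR peaks, of which 7 were NCoR alone and 1 was shared, 26697 bp downstream of its TSS. Ugt2b36 held 7, with 6 of NCoR alone and a shared site 11344 bp upstream. Ugt2b5 held shared sites at 7950 and 56345 bp upstream, Ugt2b34 at 3991 bp upstream and Ugt2b37 at 1224 bp upstream. Ugt2b38 held a single NCoR peak, with SMRT and without HDAC3, 27073 bp downstream. The 3 Ugt2a genes held 5 NCoR peaks and no shared site.

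**Figure D3:**
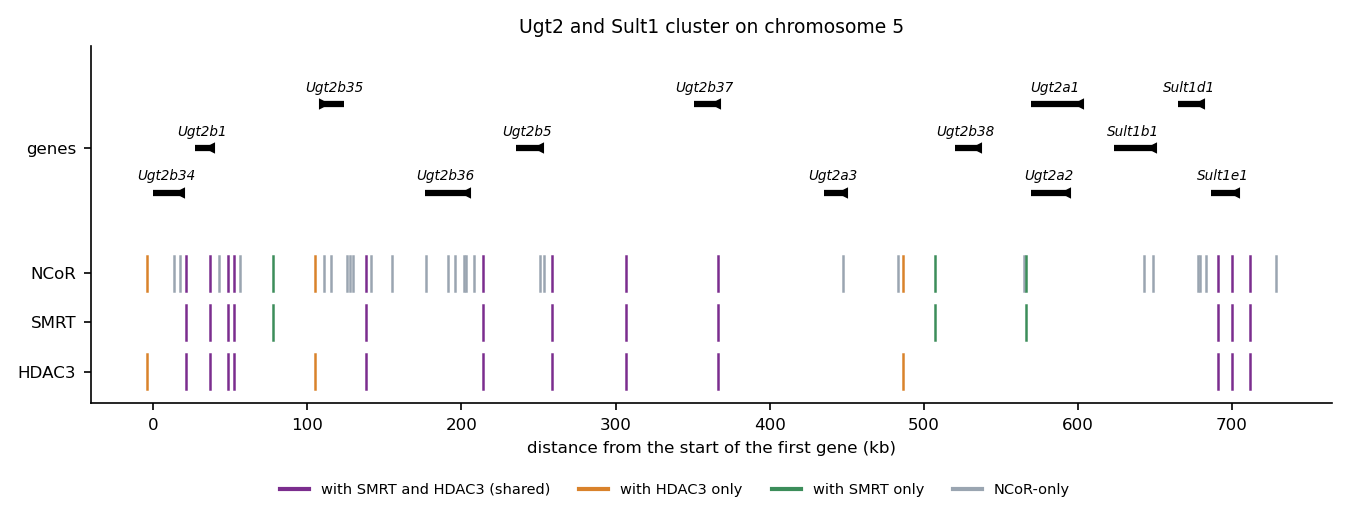
Map of the Ugt2 and Sult1 cluster on chromosome 5, with distance from the start of the first gene in kb on the x axis, genes as black bars with an arrowhead at the 5′ end, and 1 tick per NCoR, SMRT or HDAC3 peak coloured by the cofactors present. The 12 shared sites (purple) were spread from Ugt2b34 to Sult1e1, and Ugt2b35 (7) and Ugt2b36 (6) held the most sites of NCoR alone (grey).

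Promoter copies within Ugt2b also differed in their peaks. NCoR peaks lay 114 bp upstream of Ugt2b5 and 41 bp upstream of Ugt2b36, while the promoters of Ugt2b37 and Ugt2b38 held no NCoR peak within 200 bp of the stretch aligned to the 121 bases around the Ugt2b5 peak. The stretches are shown on the minus strand, which is that of the genes, at chr5:87140372-87140492 (Ugt2b5), chr5:87092590-87092707 (Ugt2b36), chr5:87254837-87254962 (Ugt2b37) and chr5:87424238-87424363 (Ugt2b38), with C/EBP and FOX matches in capitals.
Ugt2b5, NCoR alone: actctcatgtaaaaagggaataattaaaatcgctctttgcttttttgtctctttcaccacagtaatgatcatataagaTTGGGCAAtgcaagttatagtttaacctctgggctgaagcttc
Ugt2b36, NCoR alone: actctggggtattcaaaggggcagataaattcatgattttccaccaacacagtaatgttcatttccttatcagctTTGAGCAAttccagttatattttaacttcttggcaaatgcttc
Ugt2b37, no listed peak: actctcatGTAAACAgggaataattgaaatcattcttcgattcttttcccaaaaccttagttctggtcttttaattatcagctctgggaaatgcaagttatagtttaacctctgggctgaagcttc
Ugt2b38, no listed peak: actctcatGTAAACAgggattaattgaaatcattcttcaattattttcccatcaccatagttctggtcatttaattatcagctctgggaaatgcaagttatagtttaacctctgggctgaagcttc
Identity to Ugt2b5 was 63.4% for Ugt2b36, 77.3% for Ugt2b37 and 78.9% for Ugt2b38, so the most similar copies were those without a peak. The C/EBP string was present in Ugt2b5 and Ugt2b36, and a FOX string in Ugt2b37 and Ugt2b38, while the stretches of Ugt2b34, Ugt2b35 and Ugt2b1, all with NCoR, held no match. That of Ugt2b1 had only 26 bases. That of Ugt2b34 ran from 238 to 142 bp upstream and left out its peak centre, 75 bp upstream. In the RefSeq promoters (250 bp before to 50 bp after a TSS) Ugt2b1 held a C/EBP string, Ugt2b35 a FOX string and Ugt2b34 neither. A FOX string was thus also present at a promoter with NCoR. The share of unique words in 501 bp windows was 87.8% at Ugt2b5, 100% at Ugt2b36, 93.4% at Ugt2b37 and 86.7% at Ugt2b38. Ugt2b34, Ugt2b35 and Ugt2b1 aligned to the Ugt2b5 stretch at 58.9%, 65.3% and, over 26 columns only, 76.9%, in that order.

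Among the sulfotransferases outside the Sult2a cluster, Sult1e1 and Sult3a2 held the most shared sites, 3 each. Sult1e1 encodes the estrogen sulfotransferase (chr5:87575969-87591594, minus strand). Of its 4 NCoR peaks 3 were shared, at 1502 and 11006 bp downstream and 9633 bp upstream of the TSS. The nearest of them overlapped a coding exon. Sult3a2 (chr10:33766424-33786704, minus strand), whose family acts on amines, had shared sites at 1044, 25774 and 30406 bp upstream and NCoR alone at 2808 bp upstream. Its neighbour Sult3a1 had 2 NCoR peaks, neither with a partner. The peak 10343 bp upstream of Sult3a1 aligned with the shared site 1044 bp upstream of Sult3a2 at 76.4% identity over 496 bp, which makes a pair of related sequences with and without SMRT and HDAC3. The Sult3a2 window (chr10:33787648-33787848, minus strand) held a C/EBP match that was absent from the Sult3a1 window (chr10:33847278-33847478, plus strand).
Sult3a2, shared site: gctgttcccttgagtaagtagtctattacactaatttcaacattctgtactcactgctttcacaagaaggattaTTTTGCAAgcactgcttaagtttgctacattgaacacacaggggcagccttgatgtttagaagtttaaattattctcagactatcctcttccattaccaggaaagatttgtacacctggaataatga
Sult3a1, NCoR alone: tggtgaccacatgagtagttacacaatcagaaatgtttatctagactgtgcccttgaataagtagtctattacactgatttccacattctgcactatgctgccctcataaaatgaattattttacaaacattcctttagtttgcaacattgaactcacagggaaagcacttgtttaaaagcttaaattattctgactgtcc
Sult1a1, the main phenol sulfotransferase, and Sult5a1 had 1 shared site each, at 4957 and 4625 bp upstream. The Sult5a1 site held the only DR4 match among the 146 member peaks, and lay in an intron of the annotated gene Gm20388 (chr8:123162795-123162995, minus strand). It is printed with its BCL6/STAT, DR4 and C/EBP matches in capitals.
Sult5a1 upstream site: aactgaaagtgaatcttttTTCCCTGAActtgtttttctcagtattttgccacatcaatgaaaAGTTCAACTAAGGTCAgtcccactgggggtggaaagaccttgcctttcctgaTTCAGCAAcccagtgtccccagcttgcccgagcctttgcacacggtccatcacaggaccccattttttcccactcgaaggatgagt
Sult1b1, which acts on thyroid hormones, had 2 NCoR peaks and Sult1d1, which acts on catecholamines, had 3, all NCoR alone.

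Among the glutathione S-transferases, the alpha class held mostly sites with partners. Its 4 loci had 12 NCoR peaks, of which 6 were shared and 2 were NCoR alone. The shared part was 50% (21.1 to 78.9), an interval that included the 25.0% over all loci. NCoR alone made up 16.7% (2.09 to 48.4), against 55.9% over all loci. No test was run between enzyme classes. Gsta4, which conjugates the lipid peroxidation product hydroxynonenal, had shared sites at 27002 and 34426 bp upstream, both within the neighbouring gene Ick, and NCoR with HDAC3 48 bp downstream of its TSS. Gsta3, which detoxifies aflatoxin epoxide in mice, had a shared site 8526 bp upstream, NCoR with HDAC3 12578 bp downstream and NCoR with SMRT at its promoter, 183 bp upstream. Gsta2 had shared sites at 7693 and 8639 bp upstream of the nearest TSS of the basic annotation. The second of them lay 9 bp upstream of the 5′ end of the gene as a whole, so it is a promoter site if that longer form is counted. The other (chr9:78354751-78354951, minus strand) held a BCL6/STAT match.
Gsta2 shared site: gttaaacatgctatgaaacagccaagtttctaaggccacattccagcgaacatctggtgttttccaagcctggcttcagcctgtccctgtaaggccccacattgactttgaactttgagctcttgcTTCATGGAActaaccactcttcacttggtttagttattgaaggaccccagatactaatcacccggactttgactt
Gsta1, a close copy of Gsta2, had 1 NCoR peak, shared, 13384 bp upstream. Within the span of Gsta1 17.3% of 75-base words were unique, the lowest of the 61 genes, and what peaks this hides was not tested.

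In the mu class, whose enzymes conjugate epoxides and other electrophiles, most peaks were NCoR alone (11 of 17 over 7 loci), and 3 were shared. These were 64.7% (38.3 to 85.8) and 17.6% (3.80 to 43.4) of its peaks. Both intervals included the shares over all loci, 55.9% and 25.0%. Gstm1 held 6 NCoR peaks, of which the 1 at 7500 bp upstream was shared. Gstm3 and Gstm4 held 1 shared site each, 5197 bp upstream and 87 bp downstream of the TSS. In the pi class Gstp3 held 5 NCoR peaks with 1 shared site, 9665 bp upstream, while Gstp1 and Gstp2, whose spans were 69.0% and 76.1% unique, held 2 and 1, all NCoR alone. The Gstp2 peak, 3904 bp from the nearest basic TSS, lay 144 bp upstream of the 5′ end of the gene as a whole. In the theta class Gstt1, which acts on small halogenated compounds, had shared sites at 7450 bp downstream and 5812 bp upstream, and Gstt2 had 1 shared site. Gstz1, an isomerase of tyrosine breakdown, had 4 NCoR peaks, 2 of them at promoters, and no shared site. Gsto1 and Gsto2 had 1 NCoR peak each, the former with HDAC3.

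**Figure D4:**
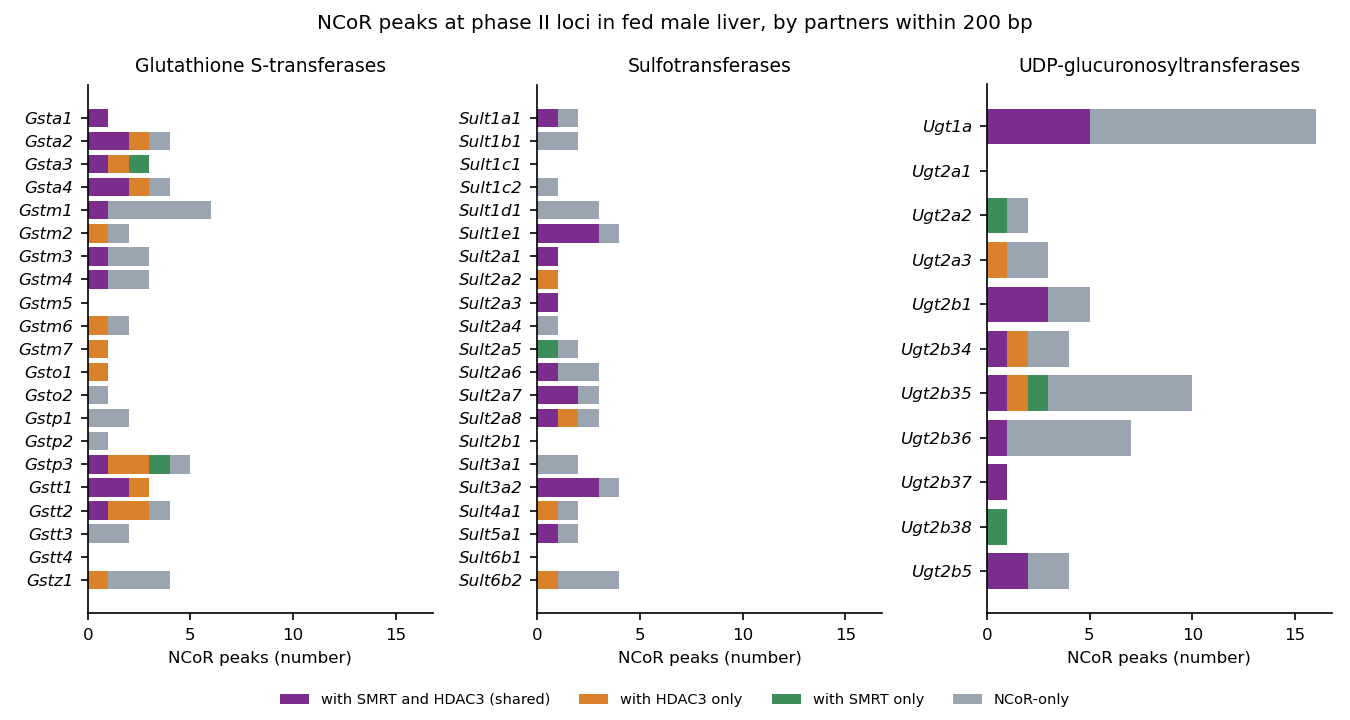
Number of NCoR peaks (x axis) at each of the 53 phase II loci (y axis), in 3 panels by enzyme superfamily, with bars split by the cofactors within 200 bp. Ugt1a (16 peaks) and Ugt2b35 (10) had the longest bars, 6 loci had none, and 26 loci had a purple (shared) part.

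The number of NCoR peaks per locus ranged from 0 to 16, with a median of 2. Of the 26 loci with shared sites, 17 had 1, 5 had 2, 3 had 3 and Ugt1a had 5. No NCoR, SMRT or HDAC3 peak was given to Gstm5, Gstt4, Sult1c1, Sult2b1, Sult6b1 or Ugt2a1. Sult2b1 encodes the cholesterol sulfotransferase. The TSS regions of these 6 genes (1000 bp to either side) were made of unique words throughout (100%). Ugt2a1 shares most of its span with Ugt2a2, whose 2 NCoR peaks lay outside that span, 25786 and 27084 bp downstream of the Ugt2a2 TSS.

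Every SMRT and every HDAC3 peak at a member had NCoR within 200 bp (47 of 47 and 61 of 61), against 95.8% and 96.5% over all loci. The centres nearly coincided, with a median distance of 15 bp between NCoR and SMRT (largest 111 bp) and of 22 bp between NCoR and HDAC3 (largest 82 bp). Of the 146 NCoR peaks, 41 were shared (28.1%, 21.0 to 36.1), 20 had HDAC3 only (13.7%, 8.57 to 20.4), 6 had SMRT only (4.11%, 1.52 to 8.73) and 79 were NCoR alone (54.1%, 45.7 to 62.4). These shares lay close to those of all loci, which were 25.0%, 14.8%, 4.16% and 55.9%. At the Cyp1 to Cyp3 loci 38.6% (31.3 to 46.3) of 171 NCoR peaks were shared and 39.8% (32.4 to 47.5) were NCoR alone. For each class the interval at members included the share over all loci. Counted per length, they held 46.2 NCoR peaks and 13.0 shared sites per Mb of sequence for which they had the nearest TSS (3.16 Mb), against 14.4 and 3.61 over all loci and 35.8 and 13.8 at the Cyp loci.

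Member peaks lay nearer to TSSs than NCoR peaks in general. The median distance was 5048.5 bp against 18194 bp over all loci, 7950 against 21828 bp for shared sites and 3929 against 16291.5 bp for NCoR alone. The sequence for which a locus had the nearest TSS had a median length of 40.6 kb at members and 45.1 kb over all loci, and a mean of 59.6 and 115.2 kb. Within 300 bp of a TSS lay 28 of 146 peaks (19.2%, 13.1 to 26.5), at 25 loci, against 9.23% over all loci. Of these 28 peaks, 22 were upstream, 18 of them in the first 150 bp, with a median position 84 bp upstream. At promoters (1000 bp upstream to 100 bp downstream of a TSS) NCoR was found at 25 of 53 loci, against 16.3% of all loci.

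The classes of the peaks near TSSs were close to those over all loci. Of the 28 peaks, 18 had no partner (64.3%, 44.1 to 81.4, against 70.4% over all loci) and 5 were shared (17.9%, 6.06 to 36.9, against 12.4%). The shared sites were at Gstt2, Ugt2b1, Sult2a8, Sult2a3 and Gstm4, while 4 peaks had HDAC3 only and that of Gsta3 had SMRT only. Of the 41 shared sites, 5 lay at promoters, 10 in introns, 1 in a coding exon, 1 in a non-coding part of an exon and 24 between genes. Of the 79 sites of NCoR alone, 18 lay at promoters, 28 in introns, 2 in coding exons and 31 between genes.

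**Figure D5:**
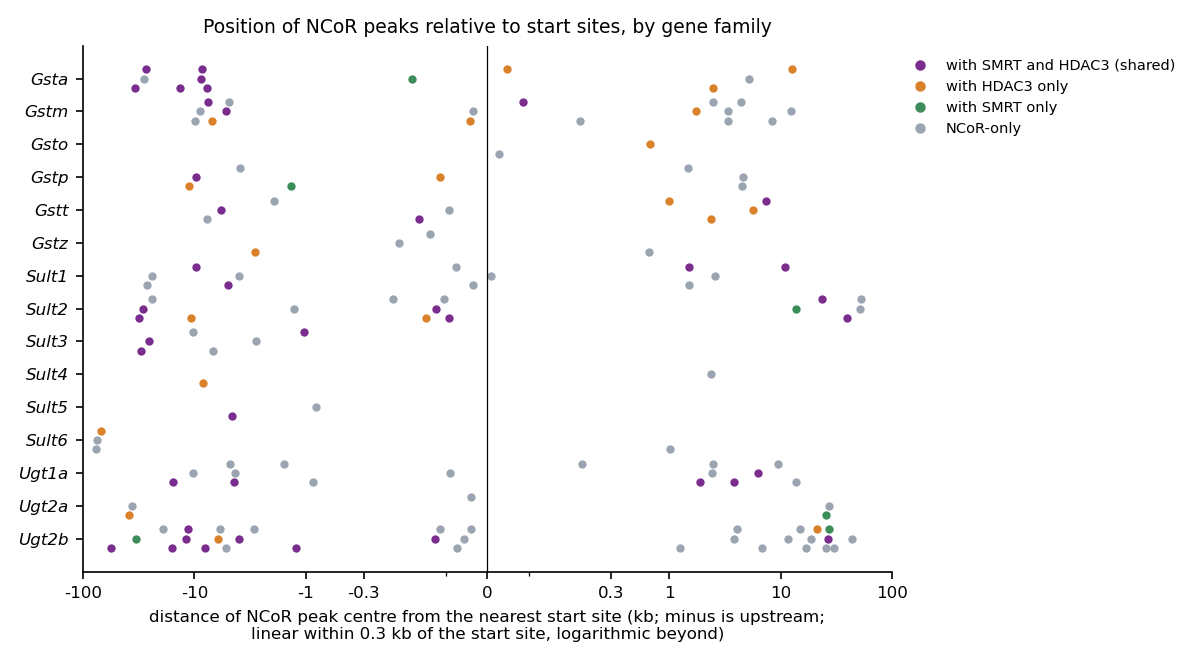
Position of each of the 146 NCoR peaks at phase II loci relative to the nearest TSS (x axis, kb, upstream to the left, linear within 0.3 kb and logarithmic beyond), by gene family (y axis), with points coloured by the cofactors within 200 bp and spread vertically within a row only to separate them. Points within 0.3 kb (28 peaks) were mostly grey (18 of NCoR alone) and to the left of the TSS (22), and the purple shared sites lay mostly further out.

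The peaks of members at TSSs were unlike most NCoR promoter peaks in base composition. Their median G and C content was 45.0% with a median of 1.5 CpG per 201 bp window, against 63.7% and 15 CpG for the 3251 NCoR peaks within 300 bp of a protein-coding TSS. Over all distances the medians were 43.5% for members and 48.3% for all NCoR peaks. Repeat sequence made up most of the window at 7.53% of member peaks and 3.82% of all.

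The HNF1 string was found in a larger share of member peaks than of all NCoR peaks, and the C/EBP string only of those near TSSs. The HNF1 string was present in 9 of 146 member peaks (6.16%, 2.86 to 11.4), against 1.64% of all NCoR peaks. The 9 were 3 at Ugt2b35 and 1 each at Gstm4, Gstp1, Sult1d1, Sult2a3, Sult2a5 and Sult6b2. Within 300 bp of a TSS it was present in 3 of 28 (10.7%), against 0.892% of all, and C/EBP in 9 of 28 (32.1%), against 9.10%. Over all distances C/EBP was present in 33 of 146 member peaks (22.6%, 16.1 to 30.3), an interval that included the 19.2% of all NCoR peaks. In the RefSeq promoter sequences (GRCm38, 250 bp before to 50 bp after a TSS) the HNF1 string was present in 8 of the 65 that belong to members (12.3%), from Sult1d1, Sult2a3, Sult2a4, Sult2a5, Sult2a6, Ugt1a1, Ugt1a9 and Ugt1a10, against 0.801% of 32851 promoters. These promoters covered 54 of the 61 genes. Several are copies of each other, as the Sult2a stretches above show, so they are not separate observations, and the part of base composition in these shares was not tested.

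For each of the other strings the interval at members included the share over all NCoR peaks. BCL6/STAT was found in 10 member peaks (6.85%, 3.33 to 12.2), ARE in 18 (12.3%, 7.47 to 18.8), FOX in 14 (9.59%, 5.34 to 15.6) and HNF6/CUX2 in 11 (7.53%, 3.82 to 13.1). DR1 was found in 4 (2.74%, 0.751 to 6.87), XRE in 3 (2.05%, 0.426 to 5.89), ERR in 2, and DR4 and HNF4 in 1 each. Of the 11 HNF6/CUX2 matches 6 were in shared sites, and of the 4 DR1 matches none was, while 28.1% of all member peaks were shared. These counts are small, and a preference for a class was not tested. No member peak within 300 bp of a TSS held BCL6/STAT, HNF4, DR1, ERR or DR4, strings found in 4.37%, 1.14%, 2.52%, 0.369% and 0.123% of all NCoR peaks there, which 28 peaks are too few to set apart from 0.

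Sequence copies across the families were compared more widely by BLASTN. Of the 146 NCoR peaks, 53 had at least 1 aligned copy of at least 100 bp at a member of the same family, with peaks lying mostly in repeats left out, and there were 140 such copies counted from each peak. An NCoR peak was listed at 22 of the 140 (15.7%). These were 12 of 45 in Sult2, 4 of 50 in Ugt2b, 4 of 27 in Ugt1a and 2 of 3 in Sult3, and none in Gsta (3), Gstm (9), Ugt2a (2) or Sult1 (1). Only uniquely mapped reads were kept, and the share of unique words was not counted copy by copy. The 3 Gsta copies lay nearest to Gsta1. The copy 1557 bp downstream of its TSS lay within its span, which was 17.3% unique. The copies 7304 and 9222 bp upstream lay outside that span. Several Sult2 copies without a peak were the promoters of Sult2a1 and Sult2a2, where 20.6% of words were unique. The part of this in the counts was not tested. The median identity of copies with and without a peak was 90.2% and 89.5% in Sult2, 77.9% and 78.4% in Ugt2b, 76.6% in both cases in Sult3, and 91.1% and 81.9% in Ugt1a. The 4 copies with a peak in Ugt1a, the 4 in Ugt2b and the 2 in Sult3 were peaks aligned to each other, each pair counted from both sides. In Sult2, all but 1 of the 12 joined the same peaks at Sult2a2, Sult2a3, Sult2a4 and Sult2a5. The exception was the Sult2a5 intron peak aligned to a Sult2a6 peak. The counts and medians of copies with a peak thus rest on very few separate sites.

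Other genes of the pathway carried the cofactors too. Of 39 loci, 37 held NCoR (94.9%), 30 SMRT (76.9%), 33 HDAC3 (84.6%) and 28 a shared site (71.8%). Over all loci these shares were 50.6%, 24.5%, 30.3% and 21.8%. The median territory of the 39, the sequence for which they had the nearest TSS, was 78.1 kb, against 45.1 kb over all loci. The part of territory in these shares was not tested. All 11 genes that supply cosubstrates held NCoR and 9 a shared site. Among them Papss2, which makes PAPS for the sulfotransferases, held 17 NCoR peaks with 7 shared sites, Papss1 10 with 3, and Gclc, the catalytic subunit of the rate-limiting step of glutathione synthesis, 11 with 2. Ugdh, which makes UDP-glucuronic acid, held 5 with 1. All 4 exporters held shared sites, with 4 at Abcc2, the canalicular pump for conjugates, 4 at Abcc4, 2 at Abcc3 and 1 at Abcg2. Of 16 other conjugating enzymes, 14 held NCoR and 11 a shared site, and Hpgds and Nat1 held no peak. All 8 regulators held NCoR and 4 a shared site: the receptor PXR (Nr1i2) had 3, NRF2 (Nfe2l2) 2, and CAR (Nr1i3) and Ahr 1 each.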

How the data were processed

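The deposited files used here list peak positions (chromosome, start and end), which the authors made from ChIP-seq of liver from Bcl6 fl/fl males. Per the labels and methods, 75-base reads were mapped uniquely to mm10 with Bowtie, candidate peaks were found with HOMER on the 3 pooled libraries of each cofactor against input, and those enriched by DESeq2 on the counts of the separate libraries were kept. The sources used here do not give the sequencing depth. Peak intervals had 1 fixed width per list (212 bp for SMRT and HDAC3, 228 bp for NCoR), so peak height and width carry no information.

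From the positions, peak centres were assigned to the nearest TSS of any protein-coding transcript of the GENCODE M21 basic annotation. Centres within 200 bp counted as overlapping. A promoter spanned 1000 bp before a TSS and 100 bp after it. Intervals are exact 95% binomial intervals (scipy 1.17.1). Motifs were searched in 201 bp windows, copies were found with BLASTN 2.17.0 (501 bp queries, at least 100 bp aligned, E value up to 1e-10), and promoter stretches were aligned with Biopython 1.88. Unique mapping drops reads from recent gene copies, so 75-base words were counted over the genome. The assignment and overlap steps were tested on simulated positions.

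Members, gene lists and motifs were chosen with earlier results of these data known. Genes described were the 16 loci with the most shared sites, then NCoR peaks, and loci without a peak, with SMRT or HDAC3 peaks lacking NCoR as a further class that held none. Other members and pathway genes named were chosen after their values were seen. The Bcl6-deleted and fasted samples and other marks of the series were not used here. Alternatives were another overlap distance, TSS set, assignment rule, promoter window and motif window.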

Additional observations from a re-analysis of the deposited data

How the results depend on the processing

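Of 35 alternatives for the counts and shares of peaks and loci, 30 stayed within 1.5 times the reported count or within its counting interval. Counting only peaks inside a gene or within 5 kb of it lowered the phase II loci with HDAC3 to 22 and with a shared site to 15, and the SMRT peaks to 27 and the HDAC3 peaks to 35, since distal peaks then drop out by construction. A promoter of 5000 bp to either side of a TSS held 73 NCoR peaks in place of 28. Of 22 alternatives for motif shares 6 moved, all with 101 bp windows, which hold fewer bases. The HNF1 share, 6.16% as reported, stayed within its interval at 3.42% with these windows and 4.79% with repeat-masked bases removed. The share over all NCoR peaks is not given at these settings, so whether the HNF1 difference held there was not tested. No paired analysis was possible because all libraries of a cofactor share 1 list of positions and no test between groups was made. Leaving out a library and a stricter peak threshold were not run, as the lists used here carry neither a value per library nor a score. A gene without a listed peak may hold one below the authors' threshold, which the positions cannot show.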
